A study of Mus musculus with 48 samples.

Results

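Acyl-CoA thioesterases and vanins act at opposite ends of the use of coenzyme A, and 9 of their genes were described here in mouse liver: Acot1, Acot2, Acot3, Acot4, Acot8, Acot12, Acot13, Vnn1 and Vnn3. They were chosen by gene name, with no threshold on a value, from 29221 genes of the joined count tables, to be described by their level over the 10 groups. All 9 were found, and all 9 passed the filter on low counts in every comparison. The genes were put forward with earlier results of these libraries in view. Counts of genes that passed a test are therefore given as a description. In each comparison, the count over the 9 genes stands beside the share of all genes that passed. Shares for other gene lists and markers are given by paragraph, not beside each count.

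Acyl-CoA thioesterases split an acyl-CoA into the free fatty acid and coenzyme A, and so work against the synthetases that activate fatty acids. The enzymes sit in different compartments: Acot1 and Acot12 in the cytosol, Acot2 in mitochondria, Acot3, Acot4 and Acot8 in peroxisomes, and Acot13 at mitochondria. Vnn1 and Vnn3 encode pantetheinases, which cut pantetheine, a breakdown product of coenzyme A, into pantothenate (vitamin B5) and cysteamine. In liver, Acot1 to Acot4 and Vnn1 are known as target genes of the fatty acid receptor PPARA, a relative of PPARG, the receptor targeted in this study.

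Whole liver RNA was sequenced from 48 mice, all carrying a floxed Pparg gene. After 16 weeks on their first diet, mice were given an adeno-associated virus, AAV8-TBG-Cre or AAV8-TBG-null. TBG is a hepatocyte promoter, so Cre is directed to hepatocytes and the other liver cells keep the floxed gene. Mice given Cre are named labelled knockouts here, and mice given the null virus are the controls. Males were on a high-fat (HF) diet for 34 weeks or on HF for 18 weeks and then a high fat, cholesterol and fructose diet (HFCF) for 16 weeks, with 6 controls and 6 labelled knockouts on each. Females had the same 2 diets and also a low-fat (LF) diet for 34 weeks, with 4 controls and 4 labelled knockouts on each. The labels give the LF mice as healthy, the HF mice as steatotic and the HFCF mice as having steatohepatitis. They describe the mice as adult and give no age, and each library is a separate mouse.

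Levels are read counts scaled to the library's total on genes and to TMM factors, which even out differences in makeup between libraries (CPM), and libraries held 15338239 to 22072884 reads on genes. Pparg itself did not fall in the labelled knockouts: its mean went from 34.2 to 41.1 CPM in HF males, 32.3 to 56.3 in HFCF males, 10.4 to 15.4 in LF females, 18.7 to 28.6 in HF females and 23.7 to 45.8 in HFCF females. The rise passed the test in both HFCF groups (edgeR quasi-likelihood test, adjusted p = 0.000805 in males and 0.0422 in females). These counts cover the whole gene, including parts outside a Cre deletion, so they do not check the labels. Summed over 10 hepatocyte markers, each library held 48345 to 132550 CPM, while 3 adipocyte markers summed to at most 0.223 CPM and 2 pancreas markers to at most 1.11 CPM. In whole liver, fewer cells of a type and less RNA per cell cannot be told apart.

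Acot2, Acot1, Acot4 and Acot3 lie in that order on the plus strand of chromosome 12 (GRCm38), within 72.5 kb from 83987861 to 84060402. Vnn3 and Vnn1 lie on the plus strand of chromosome 10, within 53.9 kb from 23851462 to 23905343. Acot8 is on chromosome 2 at 164792765 to 164804882 and Acot13 on chromosome 13 at 24817948 to 24831540, both on the minus strand. Acot12 is on the plus strand of chromosome 13 at 91741512 to 91786148.

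The 250 bases before the RefSeq start of 3 cluster genes are shown because the results turn most on these neighbours. Acot2 was low in 1 male group, Acot4 fell on the HFCF diet, and Acot3 differed most between the sexes. The windows are chr12:83987611-83987860, chr12:84038129-84038378 and chr12:84051894-84052143 (GRCm38.p6, plus strand), with capitals marking a match to the motif described after them.
Acot2: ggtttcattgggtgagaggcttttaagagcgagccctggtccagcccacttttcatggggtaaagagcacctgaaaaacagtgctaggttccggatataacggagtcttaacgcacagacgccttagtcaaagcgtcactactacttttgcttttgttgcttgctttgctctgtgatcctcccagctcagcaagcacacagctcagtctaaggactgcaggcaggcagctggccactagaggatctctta
Acot4: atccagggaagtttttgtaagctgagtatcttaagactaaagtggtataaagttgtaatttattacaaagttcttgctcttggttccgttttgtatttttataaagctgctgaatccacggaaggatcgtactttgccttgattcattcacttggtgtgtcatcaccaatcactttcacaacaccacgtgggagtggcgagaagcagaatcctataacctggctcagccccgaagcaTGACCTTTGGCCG
Acot3: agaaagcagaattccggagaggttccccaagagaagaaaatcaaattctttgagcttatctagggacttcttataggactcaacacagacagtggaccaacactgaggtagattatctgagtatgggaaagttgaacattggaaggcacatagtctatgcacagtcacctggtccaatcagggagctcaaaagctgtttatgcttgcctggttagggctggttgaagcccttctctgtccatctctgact

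The motif searched was AGGTCANAGGTCA, a repeat of the site AGGTCA with 1 base between the copies, of the kind PPAR receptors are known to bind. Both strands of windows from 250 bases before to 50 after each start were searched, with up to 2 mismatches. RefSeq windows matched 7 of the 9 genes by symbol (not Acot13 and Vnn1). Acot4 held TGACCTTTGGCCG, a minus-strand match whose first base is 13 bases before the start. Acot12 held TGACCTCTCACCT, also on the minus strand, 110 bases before its start. A match at this tolerance occurred in 3.875% of 32544 windows, and an exact one in 0.04%. A match describes letters only, and the windows of Acot1, Acot2, Acot3, Acot8 and Vnn3 held none.

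Close copies limit how well reads can be assigned. The coding sequences of Acot1 and Acot2 were identical at 95.6% of aligned bases, and 43.6% of the 50-base stretches of Acot1 also occurred in Acot2. For Acot1 and Acot3 these figures were 84.0% and 14.2%. Vnn1 and Vnn3 were 69.1% identical and shared no 50-base stretch (0.0%). How reads that fit several copies were counted is not given in the sources used here. Acot1 and Acot2 are thus uncertain as single genes, and their sum is also given. Any reads left uncounted would be missing from the sum too. Acot3 and Acot4 overlap the antisense gene 4732463B04Rik, and also Gm49366, a protein-coding gene on their own strand that was not analysed here. The libraries carry no strand, so reads of neither gene can be told apart from theirs where they overlap. The antisense gene had 9.62 ± 3.45 CPM (SD, n = 6) in control HF males and 22.7 ± 5.40 CPM (SD, n = 4) in control HF females. Acot8 overlaps Snx21 in the same way.

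The 9 genes differed widely in how far their level varied. The highest of the 10 group means was 35.2 times the lowest for Acot3, 8.14 times for Acot1, 5.51 times for Acot4, 4.94 times for Acot2 and 4.26 times for Vnn1. It was 2.22 times the lowest for Vnn3, 1.59 for Acot12, 1.497 for Acot13 and 1.47 for Acot8. For Acot1, Acot3, Acot4 and Vnn3, the 6 female groups ranked above the 4 male groups. For Vnn1 the 5 control groups ranked above the 5 labelled knockout groups.

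**Figure D1:**
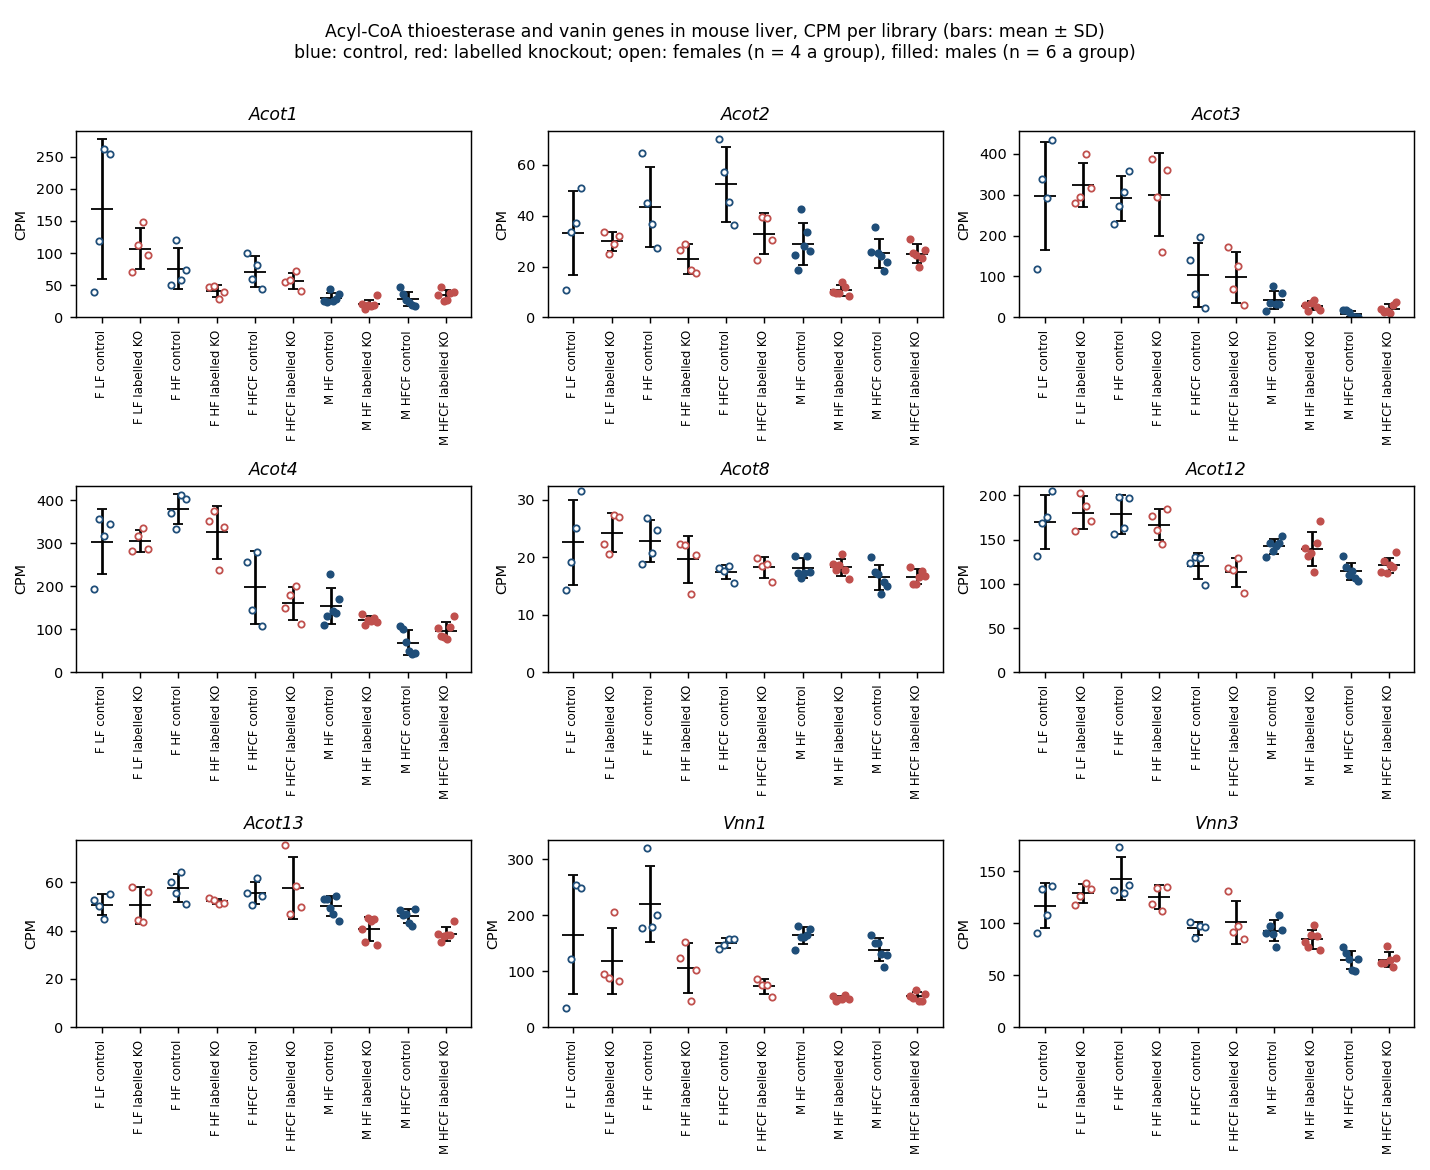
Level of each gene in CPM (vertical axis, linear, starting at 0) in every library of the 10 groups, with the mean and SD of each group; blue is control, red is labelled knockout, open points are females and filled points males. Vnn1 separates red from blue in males, while the female group means of Acot3 and Acot4 lie above the male ones, with some libraries of the sexes overlapping.

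Most neighbours in these orders were closer than the larger of their SDs. For Acot1, the order was LF control females, LF knockout-labelled females, HF control females, HFCF control females, HFCF labelled knockout females and HF labelled knockout females, then males. Its only gap beyond the larger SD lay between HFCF labelled knockout females (57.0 ± 12.7 CPM, SD, n = 4) and HF labelled knockout females (41.1 ± 9.50). For Acot2 the only such gap was at the bottom, between HF labelled knockout females (22.9 ± 5.76 CPM) and HF labelled knockout males (10.6 ± 2.04, n = 6). Acot3 had a gap between HF control females (291 ± 54.2 CPM) and HFCF control females (104 ± 78.2). A second one set HFCF control males (9.16 ± 7.48 CPM) below HFCF labelled knockout males (21.1 ± 10.9). Acot4 dropped between LF control females (304 ± 75.3 CPM) and HFCF control females (197 ± 84.0), and again between HF labelled knockout males (122 ± 8.56) and HFCF labelled knockout males (96.8 ± 20.1). Vnn1 and Vnn3 each had 1 such gap, Vnn1 between HFCF labelled knockout females (72.6 ± 13.3 CPM) and HFCF labelled knockout males (54.8 ± 7.55). The Vnn3 gap lay between HF labelled knockout males (84.4 ± 8.90 CPM) and HFCF labelled knockout males (64.9 ± 6.98). Acot8 had none, and its group means ran only from 16.5 to 24.3 CPM.

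Levels were also compared between genes per kilobase of gene length. In control HF males Vnn1 (67.7 CPM per kb), Acot13 (67.4) and Vnn3 (51.1) were the highest, followed by Acot12 (43.3) and Acot4 (23.0). Acot2 (13.2), Acot3 (12.1), Acot8 (9.08) and Acot1 (7.85) were lower. In control HF females the order changed: Vnn1 (90.8 CPM per kb) was followed by Acot3 (84.6), Vnn3 (78.8), Acot13 (77.6), Acot4 (57.0) and Acot12 (54.3), with Acot2 (19.8), Acot1 (19.3) and Acot8 (11.4) at the foot. By these means Acot3 moved from among the lowest of the 9 genes in males to the second in females. In these females the SDs were 28.0 for Vnn1, 15.8 for Acot3, 11.5 for Vnn3 and 7.81 for Acot13. These 4 were closer than the larger of their SDs. In control HFCF females Acot3 was at 30.2 ± 22.8 CPM per kb (SD, n = 4), below Acot13 (74.5), Vnn1 (62.2) and Vnn3 (52.4).

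The labelled knockout was compared with its controls within each sex and diet. In HF males, Vnn1, Acot2, Acot1 and Acot13 fell, and no gene of the 9 rose. Vnn1, a pantetheinase gene, ranged from 139 to 181 CPM in controls (median 163) and from 47.3 to 56.6 in labelled knockouts (median 50.1). The groups stood far apart, with no library in between. The fall was 3.19-fold (log2 change -1.67, SE 0.0701, n = 6 per group, edgeR quasi-likelihood test, adjusted p = 5.51e-10). Acot2, the mitochondrial thioesterase, ranged from 18.7 to 42.6 CPM in controls (median 27.1) and from 8.37 to 14.0 in labelled knockouts (median 9.78). Again the groups did not overlap, and the fall was 2.74-fold (log2 -1.45, SE 0.175, adjusted p = 4.59e-05, edgeR). Both calls held when any 1 of the 12 libraries was left out.

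Acot1, the cytosolic copy, was lower by less: 24.6 to 43.6 CPM in control HF males (median 27.2) against 13.4 to 34.3 (median 19.1). The groups overlapped, since labelled knockout replicate 6 at 34.3 CPM lay within the control range. Its log2 change was -0.58 (SE 0.191, adjusted p = 0.0467, edgeR). That call held in 4 of 12 fits without a library, those without control replicate 1, 2 or 4 or labelled knockout replicate 6. Adjusted p was 0.00235 without labelled knockout replicate 6, and 0.121 without control replicate 3. With all male groups in 1 fit it was 0.0766. Summed over Acot1 and Acot2, whose reads can be confused, the level was 59.7 ± 14.9 CPM (SD, n = 6) in controls and 31.3 ± 6.39 in labelled knockouts, and the highest of the latter (42.6) lay under the lowest control (43.3). Acot13, a small thioesterase of another protein fold, went from 50.1 ± 4.22 to 40.6 ± 4.90 CPM (SD, n = 6 each, log2 -0.31, SE 0.0799, adjusted p = 0.0133, edgeR), with overlapping groups.

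The peroxisomal genes and Vnn3 did not pass the test in HF males. Acot4 was at 109 to 229 CPM in controls and 111 to 136 in labelled knockouts (log2 -0.34, SE 0.134, adjusted p = 0.0941, edgeR). Acot3 varied from 14.8 to 76.2 CPM within the controls alone, and its log2 change of -0.55 had an SE of 0.317. The log2 change was 0.01 for Acot8, -0.04 for Acot12 and -0.14 for Vnn3 (SE 0.0811). In all, 4 of the 9 genes were called lower, where 18.5% of 14041 tested genes were called and 9.88% were called lower. The median log2 change was -0.34 over the 9 and 0.00 over all genes tested.

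In HFCF males, Vnn1 alone fell. Controls ranged from 107 to 165 CPM (median 139.7) and labelled knockouts from 46.6 to 66.3 (median 54.5). No library of either group reached the other. The fall was 2.52-fold (log2 -1.33, SE 0.106, n = 6 per group, edgeR, adjusted p = 1.2e-05) and held in all 12 fits without a library. This was 1 of 9 genes, against 2.21% of 14685 genes called. Acot2 was level, at 25.15 ± 5.75 CPM in controls and 25.1 ± 3.63 in labelled knockouts (log2 0.00, 95% interval -0.27 to 0.27). Acot13 had a log2 change of -0.25 (SE 0.0620, adjusted p = 0.0549, edgeR) and Acot1 one of 0.30. For the peroxisomal Acot3 and Acot4 the values pointed up, with log2 changes of 1.21 (SE 0.514, adjusted p = 0.288) and 0.49 (SE 0.226, adjusted p = 0.338), neither past the threshold in edgeR.

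**Figure D2:**
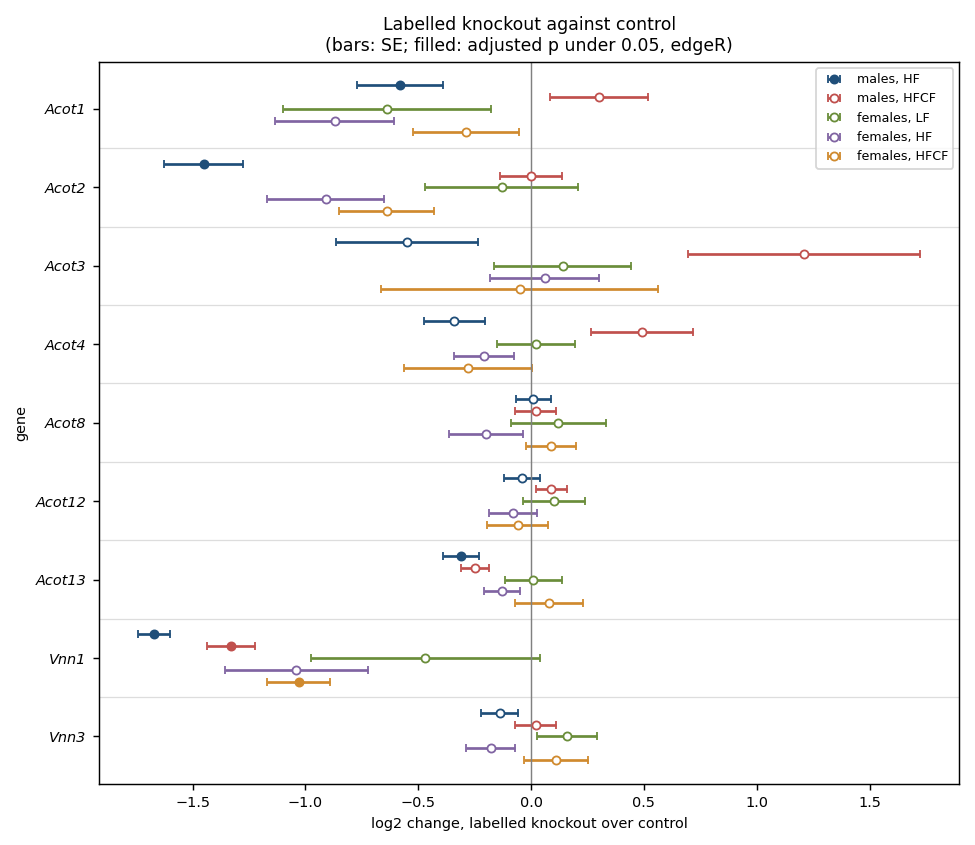
Log2 change of each gene, labelled knockout over control (horizontal axis), in the 5 sex and diet comparisons; bars are the SE and filled points have an adjusted p under 0.05. Vnn1 lies to the left of 0 in all 5, and Acot2 is far left in HF males (-1.45) and at 0.00 in HFCF males.

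The difference between the 2 male changes was tested as an interaction. Acot2 passed: its log2 change was 1.44 higher on HFCF than on HF (SE 0.234, edgeR, adjusted p = 0.00217), and this held in all 24 fits without a library. No other of the 9 was called, against 1.56% of 15096 genes. The Vnn1 changes differed by 0.32 (SE 0.130, 95% interval 0.07 to 0.58, adjusted p = 0.191). For Acot1 the difference was 0.86 (adjusted p = 0.141), for Acot3 1.74 (adjusted p = 0.147) and for Acot4 0.81 (adjusted p = 0.120), none called by edgeR. Without HFCF control replicate 1, Acot4 passed as well (difference 0.99, adjusted p = 0.0475).

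In females, no gene of the 9 was called on the LF or HF diet, and Vnn1 alone was called on HFCF. On LF, Vnn1 was at 34.7, 121, 254 and 249 CPM in controls and at 95.0, 88.2, 206 and 81.4 in labelled knockouts. The controls alone spanned both extremes, so the groups overlapped fully, and the log2 change was -0.47 with an SE of 0.507. Acot1 was spread in the same manner, at 39.9, 118, 262 and 254 CPM against 70.5, 112, 148 and 97.6 (log2 -0.64, SE 0.462). For both genes the high control values came from replicates 3 and 4, whose animal numbers are below those of control replicates 1 and 2. Labelled knockout replicates 1, 2 and 3 are also numbered below these, and replicate 4 is not. The part of animal number was not tested. In this comparison edgeR called 0 of 9 genes, with 0 at an unadjusted p under 0.05, and 0 by the DESeq2 Wald test. Among all genes 0.0% were called and 2.49% had such an unadjusted p.

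On HF, control females had 177, 319, 179.5 and 201 CPM of Vnn1, and labelled knockout females 123, 152, 46.3 and 101. All 4 of the latter lay below all 4 controls (log2 -1.04, SE 0.318, edgeR, adjusted p = 0.567). Acot1 did not overlap either, at 50.8, 121, 58.1 and 73.5 CPM against 47.96, 48.9, 28.5 and 39.1 (log2 -0.87, SE 0.263, adjusted p = 0.567). Acot2 was at 64.6, 45.2, 36.6 and 27.5 CPM against 26.6, 29.1, 18.8 and 17.3, and overlapped by 1 control (log2 -0.91, SE 0.259, adjusted p = 0.532). These 3 genes had an unadjusted p under 0.05, as did 8.03% of all genes, but edgeR called 0 of the 9 and 0.0% of 14128 genes, and the DESeq2 Wald test 0 of the 9. The sizes can be set beside the male ones, yet the difference between the sexes was not called for any gene. For Vnn1 on HF, the male log2 change was lower than the female one by 0.62 (difference -0.62, SE 0.292, 95% interval -1.19 to -0.05, edgeR, adjusted p = 0.467). For Acot2 on HF that difference was -0.54 (SE 0.317, adjusted p = 0.550).

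On HFCF, control females had 140.03, 147, 157 and 157 CPM of Vnn1 and labelled knockout females 86.0, 74.8, 75.5 and 54.2. The 2 groups were well apart and each was narrow. The fall was 2.04-fold (log2 -1.03, SE 0.140, n = 4 per group, edgeR, adjusted p = 0.0422), with 0.0534% of 14980 genes called. The size was steady but the call was not: it held in 1 of 8 fits without a library, that without labelled knockout replicate 1, and adjusted p ranged from 0.00599 to 0.220. Adjusted p was 0.431 with all female groups in 1 fit. Acot2 had 70.4, 57.3, 45.3 and 36.4 CPM in controls and 22.8, 39.6, 39.2 and 30.4 in labelled knockouts (log2 -0.64, SE 0.211, adjusted p = 0.544). The sex difference on this diet was -0.30 for Vnn1 and 0.64 for Acot2 (adjusted p = 0.583 and 0.444, edgeR). Interactions of labelled knockout with sex called 0 of the 9 genes and 0.0% of all genes on either diet, and that with HF against HFCF in females likewise. Unadjusted p was under 0.05 for Vnn1 on HF, for Acot2 and Acot13 on HFCF, and for 0 of the 9 in the female interaction. The DESeq2 Wald test also called 0 of the 9 in these 3 interactions.

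Other genes of acyl-CoA handling moved in both directions in HF males, where 18.5% of all tested genes were called and 9.88% were called lower. Of 9 tested acyl-CoA thioesterases outside the 9 described, 2 rose and 3 fell. Acot9, a mitochondrial thioesterase, had a log2 change of -0.79 (adjusted p = 0.00217, edgeR) and Acot6, of the chromosome 12 cluster, one of -0.73 from a low level of 4.72 CPM (adjusted p = 0.0141). Acot11 rose by 0.63 (adjusted p = 0.00449). Of 13 acyl-CoA synthetases, 2 rose and 6 fell; Acsm3, a medium-chain synthetase, had a log2 change of -0.58 and Slc27a5, which activates bile acids, one of 0.48. Of 17 genes of coenzyme A synthesis and turnover, 2 rose and 4 fell, with the vitamin transporter gene Slc5a6 at -0.77 (adjusted p = 4.52e-05, edgeR).

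Among 27 tested PPARA target genes of fatty acid oxidation, 14 fell and 0 rose in HF males (median log2 -0.25). Pdk4, a kinase that shuts down pyruvate dehydrogenase, had the lowest log2 change at -1.84 (adjusted p = 0.000241, edgeR). The peroxisomal thiolase gene Acaa1b was at -1.28 and Pex11a, a gene of peroxisome division, at -1.21. Of 11 PPARG-associated lipid genes 9 fell, among them Cidea, from 20.4 to 0.310 CPM. Hepatocyte markers were higher in the same libraries: 6 of 10 were called higher, and their sum was 103480 to 119160 CPM in labelled knockouts against 72732 to 99815 in controls. Stellate markers were called lower in 6 of 8. Of all genes tested in HF males, 18.5% were called and 9.88% were called lower. The part of these markers in the falls of Vnn1 and Acot2 was not tested.

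In HFCF males, 0 of 9 other thioesterases, 0 of 17 coenzyme A genes and 1 of 13 synthetases were called, the last being Acsm3 (log2 -0.62, adjusted p = 0.000229, edgeR). Of 28 PPARA targets 4 fell, led by Acaa1b (-0.87) and Pex11a (-0.67), and of 11 PPARG-associated genes 8 fell. Among all genes, 2.21% were called. No hepatocyte marker was called there (0 of 10, with 5 at an unadjusted p under 0.05). In females on HF, no list had a called gene, and 11 of 27 PPARA targets had an unadjusted p under 0.05. In HFCF females 3 of 9 PPARG-associated genes fell, with Cidec, a lipid droplet gene, at a log2 change of -2.39. The share of all genes called there was 0.0534%.

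Acot4, Acot12 and Vnn3 were lower on HFCF than on HF in controls of both sexes. Acot4 fell from 153 ± 41.9 to 69.0 ± 28.6 CPM in control males (SD, n = 6 each), with ranges of 109 to 229 and 42.7 to 108. The ranges did not touch, and the fall was 2.21-fold (log2 -1.15, SE 0.238, edgeR, adjusted p = 0.00428). In control females it had 372, 334, 412 and 403 CPM on HF and 256, 145, 280.3 and 107 on HFCF (log2 -0.92, SE 0.271, n = 4 per group, adjusted p = 0.0303, edgeR). Here too no library overlapped, but the call was lost without HF replicate 2, 3 or 4 or HFCF replicate 2 (adjusted p up to 0.0815). Acot4 also fell in labelled knockouts, by 0.33 on the log2 scale in males (adjusted p = 0.0249) and by 1.02 in females (SE 0.190, adjusted p = 0.00868, edgeR). The male call was lost with all male groups in 1 fit (adjusted p = 0.174) and without HF replicate 1 or HFCF replicate 2, 3 or 4 (adjusted p up to 0.0591).

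Acot3, its peroxisomal neighbour, fell 4.54-fold in control males (log2 -2.18, SE 0.516, edgeR, adjusted p = 0.00824), though the libraries were scattered. Controls on HF ranged from 14.8 to 76.2 CPM (median 33.6), and those on HFCF were at 17.2, 17.3, 12.9, 3.74, 1.74 and 2.06. Of the HFCF libraries 2 lay within the HF range and 3 lay below 4 CPM. In control females Acot3 had 228, 272, 306 and 357 CPM on HF and 139, 56.6, 196 and 23.6 on HFCF, without overlap (log2 -1.46, SE 0.522, adjusted p = 0.0583, edgeR). Not called in the main fit, it passed in edgeR with no filter on low counts (adjusted p = 0.0411) and with all female groups in 1 fit (0.0319). In labelled knockout females it fell by 1.61 (SE 0.457, adjusted p = 0.0419), a call that held only without HF replicate 3 or HFCF replicate 1 among the 8 fits without a library (adjusted p from 0.0108 to 0.116). In labelled knockout males its log2 change was -0.44 (SE 0.302, adjusted p = 0.262).

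Vnn3, the other pantetheinase, had 77.3 to 108 CPM in control HF males (median 91.6) and 54.0 to 76.8 in control HFCF males (median 65.0). The ranges came close without meeting (log2 -0.51, SE 0.0919, edgeR, adjusted p = 0.00217). Control females had 132, 174, 129 and 137 CPM on HF and 101, 86.0, 97.2 and 95.8 on HFCF, also apart (log2 -0.57, SE 0.105, adjusted p = 0.00725). Vnn3 fell in labelled knockout males as well (-0.38, adjusted p = 0.00187), and had a log2 change of -0.30 in labelled knockout females (adjusted p = 0.163, edgeR). Acot12, the cytosolic acetyl-CoA thioesterase, fell by 0.32 in control males (143 ± 8.46 to 114 ± 9.82 CPM, adjusted p = 0.00358). Its fall was 0.55 in control females (179 ± 22.0 to 120.2 ± 14.8 CPM, SE 0.115, adjusted p = 0.00997) and 0.55 in labelled knockout females (SE 0.127, adjusted p = 0.0190, edgeR), the last call being lost without HF replicate 1 or 4 or HFCF replicate 2 or 4 (adjusted p up to 0.0653).

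The Vnn1 changes can be set beside those of Vnn3, though no difference between the genes was tested. Its log2 change was -0.23 in control males (adjusted p = 0.0852), 0.09 in labelled knockout males and -0.53 in labelled knockout females (SE 0.288). In control females it was -0.52 (SE 0.177, adjusted p = 0.0499, edgeR), a call that held only without HF replicate 1 among the 8 fits without a library (adjusted p from 0.0174 to 0.122). Acot8, the broad peroxisomal thioesterase, was called only in control females (-0.36, adjusted p = 0.0416), and only without HF replicate 1 or HFCF replicate 3 among such fits (adjusted p from 0.00882 to 0.108).

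Acot1 and Acot2 went the other way in labelled knockout males, where both rose on HFCF. Acot2 was 8.37 to 14.0 CPM on HF and 19.9 to 30.8 on HFCF (median 25.0), with no overlap (2.37-fold, log2 1.24, SE 0.125, n = 6 per group, edgeR, adjusted p = 4.33e-06). Acot1 was 13.4 to 34.3 CPM on HF and 25.1 to 46.5 on HFCF (median 36.3), with overlap (log2 0.77, SE 0.189, adjusted p = 0.00442). Their sum was 31.3 ± 6.39 CPM on HF and 60.3 ± 9.82 on HFCF (SD, n = 6 each). In control males neither passed, at -0.10 for Acot1 and -0.19 for Acot2. In labelled knockout females the values were 0.48 and 0.54 (adjusted p = 0.121 and 0.117, edgeR).

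In these 4 comparisons the number of the 9 genes called was 4 in control males, 4 in labelled knockout males, 5 in control females and 3 in labelled knockout females. The shares of all genes called were 22.3%, 41.7%, 30.8% and 14.5%. For calls in the lower direction, the counts were 4, 2, 5 and 3 of 9, and the shares of all genes 9.31%, 20.0%, 13.8% and 6.01%. Whether the fall in controls differed between the sexes was tested as an interaction, which called 0 of the 9 by edgeR and by the DESeq2 Wald test, with 0 at an unadjusted p under 0.05 and 0.00646% of genes called (1 gene, but 1699 without HF control female replicate 1, with still 0 of the 9). The difference was -0.71 for Acot3 (SE 0.800) and -0.21 for Acot4 (SE 0.393), and its 95% interval for Acot4 ran from -0.98 to 0.56. The control and labelled knockout comparisons do not share libraries here, but each group also serves in a comparison of the labelled knockout. In females, the animal numbers of replicates 1, 2 and 3 of both HFCF groups are below those of all HF mice. HFCF control replicate 5 and labelled knockout replicate 4 are numbered within the HF range. They were the lowest of their groups for 6 and 7 of the 9 genes. The part of animal number in the diet difference was not tested.

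**Figure D3:**
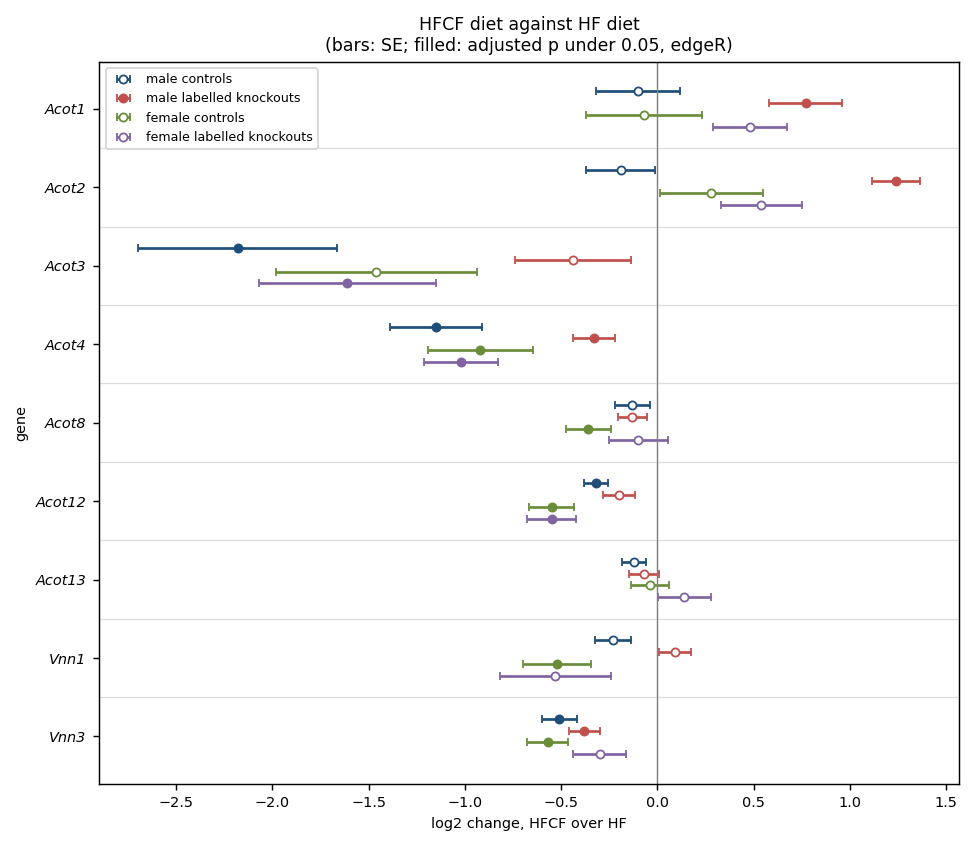
Log2 change of each gene, HFCF over HF (horizontal axis), in male and female controls and labelled knockouts; bars are the SE and filled points have an adjusted p under 0.05. Acot3 and Acot4 lie left of 0 in all 4 groups, and Acot2 lies far right only in labelled knockout males (1.24).

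Hepatocyte markers moved in the same direction as these falls. Of 10, edgeR called 5 lower in control males, 8 in labelled knockout males, 6 in control females and 1 in labelled knockout females, and none higher. Their sum was 48345 to 75261 CPM in control HFCF males and 61880 to 77762 in control HFCF females, below all HF controls of the same sex except that the male ranges met (72732 to 99815 on HF). The median log2 change of these 10 markers was -0.32, -0.69, -0.55 and -0.41 in the same order of groups. In controls, Acot12 fell by as much as the median of its sex. Vnn3 fell by about as much in females and by more in males, and Acot4 by more in both. In labelled knockout males, Acot4 and Vnn3 fell by less than the marker median of -0.69. In labelled knockout females, Acot4 and Acot12 fell by more than the median of -0.41, and the Vnn3 change was smaller than it. Macrophage markers were called higher in 7, 8, 7 and 4 of 10, and biliary markers in 5 of 5 in each comparison. Of all genes tested, 22.3%, 41.7%, 30.8% and 14.5% were called, and 9.31%, 20.0%, 13.8% and 6.01% were called lower. The part of these cell type markers in the falls was not tested.

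Other acyl-CoA genes gave the following counts on HFCF against HF, in the same order of groups. The shares of all genes called were 22.3%, 41.7%, 30.8% and 14.5%. Of 9 other thioesterases, 2, 3, 2 and 1 rose and 1, 2, 2 and 0 fell. Acot9 rose in all 4, by 0.77, 1.26, 1.04 and 0.94 on the log2 scale, opposite to Acot4. Of 17 coenzyme A genes, 5, 10, 7 and 4 fell and 1, 0, 0 and 1 rose, with Pank1, a pantothenate kinase that starts coenzyme A synthesis, at -0.61, -0.53, -0.63 and -0.72. Of 13 synthetases, 3, 6, 7 and 5 fell and 1, 3, 1 and 0 rose, Acsm3 among those that fell in all 4. PPARA targets were mixed: 11, 14, 16 and 2 fell and 0, 6, 3 and 2 rose, of 27 or 28 tested. Pdk4 rose by 1.20 on the log2 scale in control females (adjusted p = 0.0345, edgeR). It also rose by 1.53 in labelled knockout males (adjusted p = 0.00121, edgeR) and by 1.54 in labelled knockout females (adjusted p = 0.0220), but was not called higher in control males.

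The HF and LF diets were compared in females. In controls edgeR called 0 of the 9 genes, and so did the DESeq2 Wald test, with 0.696% of all genes called. Acot1, the only 1 with an unadjusted p under 0.05, had a log2 change of -1.15 (SE 0.499, adjusted p = 0.291). In labelled knockouts Acot1 had 70.5, 112, 148 and 97.6 CPM on LF and 47.96, 48.9, 28.5 and 39.1 on HF. All HF libraries lay under all LF ones (2.604-fold, log2 -1.38, SE 0.219, n = 4 per group, edgeR, adjusted p = 0.047). No other of the 9 was called, against 0.155% of all genes. The call held in 1 of 8 fits without a library, that without LF labelled knockout replicate 1 (adjusted p from 0.0212 to 0.142 over the 8). It was lost with all female groups in 1 fit (adjusted p = 0.104). The animal numbers of LF labelled knockout replicates 1, 2 and 3 and of LF control replicates 3 and 4 are below those of all HF females. In LF controls, Acot1 was at 262 and 254 CPM in replicates 3 and 4, and at 39.9 and 118 in replicates 1 and 2. LF labelled knockout replicate 4, numbered within the HF range, was at 97.6 CPM, among its group. Diet and animal number are thus partly tied, and the part of each was not tested. Acot2 in controls had a log2 change of 0.39 (SE 0.394), so the sum of both copies was 202 ± 123 CPM on LF and 119 ± 32.3 on HF (SD, n = 4 each), a wide overlap.

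Males and females were set against each other after the levels had been seen. The animal numbers in the labels do not overlap between the sexes, so sex and cohort cannot be told apart. Acot1, Acot3, Acot4 and Vnn3 were lower in males in all 4 comparisons (HF and HFCF, control and labelled knockout). Acot3 showed the largest gap: control HF males had 14.8 to 76.2 CPM and control HF females 228 to 357, with no overlap (6.94-fold, log2 -2.79, SE 0.336, edgeR, adjusted p = 0.000359, n = 6 and 4). In HF labelled knockouts it was 10.5-fold lower in males (log2 -3.40, adjusted p = 1.13e-05), on HFCF 11.4-fold lower in controls (log2 -3.51, SE 0.664, adjusted p = 0.0140) and 4.69-fold lower in labelled knockouts (log2 -2.23, SE 0.433, adjusted p = 0.0131). The HFCF control call was lost without female replicate 1 (adjusted p = 0.0538).

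Acot4 and Acot1 had smaller gaps. Acot4 had 109 to 229 CPM in control HF males and 334 to 412 in control HF females (2.47-fold, log2 -1.30, SE 0.165, edgeR, adjusted p = 0.000513). The male and female ranges were far apart on HF and overlapped on HFCF. Its other log2 differences were -1.42, -1.52 and -0.73 in HF labelled knockouts, HFCF controls and HFCF labelled knockouts. Acot1 was 2.46-fold, 1.99-fold, 2.49-fold and 1.63-fold lower in males in the 4 comparisons, the last with adjusted p = 0.0366 by edgeR, a call that held in 4 of 10 fits without a library (adjusted p up to 0.115 without 1 of male replicates 1, 3, 4 and 5 or female replicates 2 and 3). On HFCF the Acot1 call in controls was lost without male replicate 3 or 4 or female replicate 1 or 3 (adjusted p up to 0.0960). The Acot4 call was lost without those or male replicate 6 in controls (up to 0.0955), and without any of male replicates 1 to 5 or female replicate 3 in labelled knockouts (up to 0.0928). For Vnn3 they were -0.62, -0.57, -0.56 and -0.64, with no overlap of libraries in any of the 4.

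The remaining genes differed in some comparisons only. Acot2 was lower in males in HF labelled knockouts (log2 -1.12, SE 0.167, edgeR, adjusted p = 0.000976) and HFCF controls (-1.06, adjusted p = 0.00850), and Vnn1 in HF labelled knockouts (-1.04, adjusted p = 0.00828). Acot13 was lower in males in both labelled knockout comparisons (-0.37 and -0.58), and Acot12 in HF controls (-0.32). The HFCF call of Acot13 was lost without male replicate 2 or female replicate 3 (adjusted p up to 0.0618). The HF control call of Acot12 was lost without female replicate 2 or 4 (up to 0.0699). Acot8 was called by edgeR in none of the 4, with differences from -0.32 to -0.08. In HF controls its adjusted p was 0.0514, but 0.0331 by the DESeq2 Wald test and 0.0486 with DESeq2 size factors. The DESeq2 Wald test also called Acot13 lower in males in HFCF controls (adjusted p = 0.0178). It did so for Vnn1 in HF controls (adjusted p = 0.0369) and HFCF labelled knockouts (0.0347). The counts by edgeR were 5, 7, 5 and 5 of 9 in HF controls, HF labelled knockouts, HFCF controls and HFCF labelled knockouts, all lower in males. Among all genes 18.1%, 14.3%, 2.63% and 5.4% were called, and 9.58%, 7.02%, 1.34% and 1.99% were called lower in males. In HF controls 12 of 27 PPARA targets were also called lower in males, against 2 higher, with Cyp4a14, a fatty acid hydroxylase gene, at -1.30 (adjusted p = 0.00553, edgeR). On HFCF that count was 2 of 28 in controls, Cyp4a14 at -1.84.

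**Figure D4:**
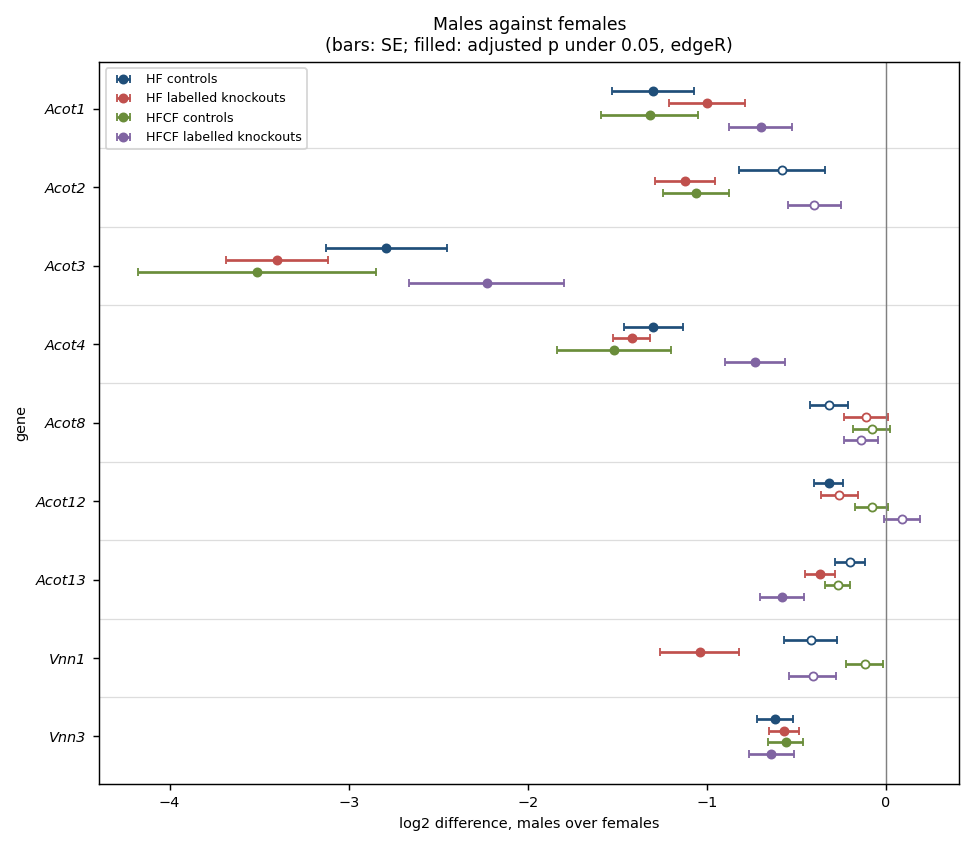
Log2 difference of each gene, males over females (horizontal axis), in 4 comparisons; bars are the SE and filled points have an adjusted p under 0.05. Acot1, Acot3, Acot4 and Vnn3 are filled and left of 0 in all 4, with Acot3 farthest left (-3.51 in HFCF controls).

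The makeup of the chromosome 12 cluster was described by group, with no test. Shares are means over libraries of each gene's share in a library. They depend on the deposited gene lengths: 3919 bases for Acot1, 2196 for Acot2, 3438 for Acot3 and 6674 for Acot4. They also depend on how reads that fit both Acot1 and Acot2 were counted, and these are uncertain as single genes. Summed per kilobase over Acot1 to Acot4, the level was 56.2 ± 17.4 CPM per kb (SD, n = 6) in control HF males, and the mean share was 41.3% for Acot4, Acot2 24.0%, Acot3 20.5% and Acot1 14.2%. In control HF females the sum was 180.6 ± 12.7 (SD, n = 4), and Acot3 led with 46.5%, ahead of Acot4 with 31.6%, Acot2 with 11.2% and Acot1 with 10.7%. On HFCF the mean share of Acot3 was 7.21% in control males (sum 31.8 ± 11.2) and 26.1% in control females (sum 101.7 ± 43.9). That of the mitochondrial Acot2 was 37.8% in control males and 25.9% in control females. In HF males the labelled knockouts had a mean Acot2 share of 13.2% (sum 36.7 ± 4.36), and in HFCF males 28.3% (sum 41.0 ± 7.97). In LF control females, the mean shares of Acot3 and Acot4 were 45.1% and 26.4%, beside a sum of 189.6 ± 79.6.

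**Figure D5:**
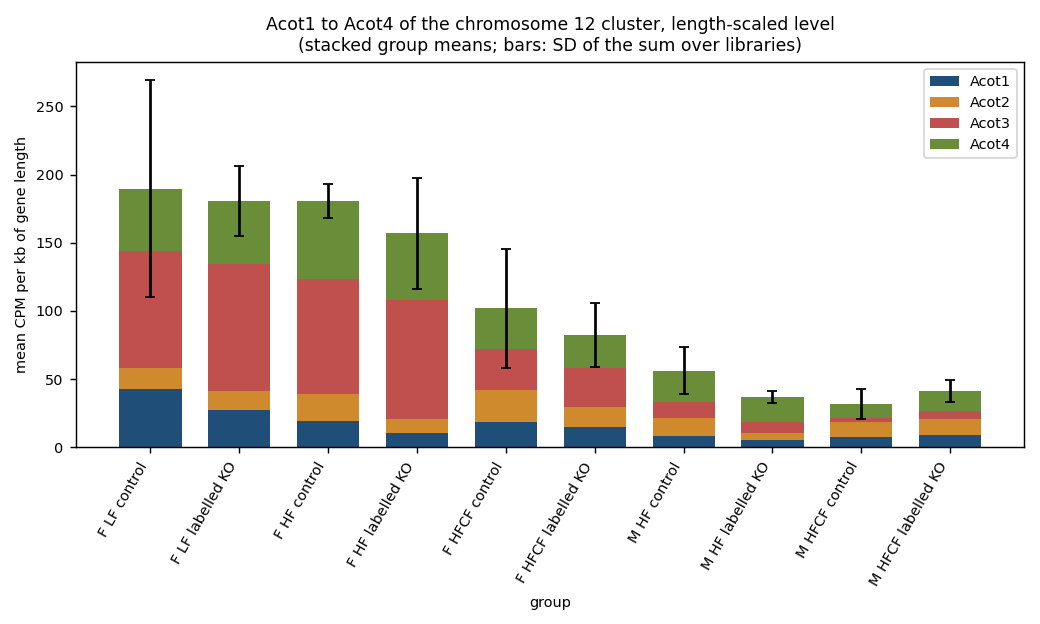
Stacked group means of Acot1 to Acot4 in CPM per kb of gene length (vertical axis, from 0) in the 10 groups; bars are the SD of the sum over libraries. The 4 male groups sum to between 31.8 and 56.2 and the 6 female groups to between 82.1 and 189.6.

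Within several groups the 9 genes moved together in single libraries. In LF control females, replicate 1 was the lowest of 4 libraries for 8 genes, all but Acot13, at 34.7 CPM for Vnn1 and 10.9 for Acot2. Its sum over PPARA targets was 12630 CPM against 18601 to 27359 in the other 3, while its sum of hepatocyte markers (126410) was the highest of the 4. In HF labelled knockout females, replicate 3 was the lowest for 8 genes, all but Acot2. That library had 150.1 CPM of summed leukocyte markers against 17.6 to 32.3 in the other 3, and 13840 CPM of PPARA targets against 19085 to 19425. In HFCF control males, replicate 1 was the highest for 6 genes, with 23477 CPM of PPARA targets against 14829 to 18657 and 75261 CPM of hepatocyte markers against 48345 to 66963. In HFCF control females, replicate 5 was the lowest for 6 genes. In HFCF labelled knockout females, replicate 4 was the lowest for 7 of the genes and replicate 1 the highest for 5. Replicate 1, without which the Vnn1 call of that diet held, had 118500 CPM of hepatocyte markers against 67379 to 85950 in the other 3, and 27.1 CPM of leukocyte markers against 48.6 to 64.3. In HF control females, replicate 1 was the lowest for 5 genes and had 1003 CPM of stellate markers against 252 to 401. The part of these libraries' other differences in the values of the 9 genes was not tested.

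Likeness was measured as Pearson's r of log2 group means over the 10 groups. Outside the 9, 9997 genes whose mean reached 5 CPM were ranked, leaving out those with symbols of predicted genes, such as symbols ending in Rik. Likeness is a description: the points share libraries, and sex and diet run through all of them. Acot3 and Acot4 were alike (r = 0.986), and both were like Vnn3 on the other chromosome (0.960 and 0.975). The near-identical Acot1 and Acot2 were less so (0.642), and Vnn1 and Vnn3 less again (0.433). Among genes outside the 9, Vnn1 was most like Pex11a (0.935), Slc23a2 (0.932) and Nmt2 (0.926), and Acot3 like Fam19a2 (0.990), Trim24 (0.983) and Sall1 (0.976). Acot4 was most like Rfk (0.977), Trim24 (0.973) and Slc16a5 (0.972), and Vnn3 like Txnrd2 (0.974), Abcd2 (0.972) and Sft2d1 (0.966). For Acot1 these were Fam84b (0.964), Plpp5 (0.952) and Cyp4a10 (0.941), and for Acot2 Cavin2 (0.929), Car2 (0.906) and Arhgef40 (0.883). The more even genes had Zfp189 (0.969), Map2k7 (0.964) and Dcaf6 (0.957) for Acot8, Stx17 (0.988), Akap1 (0.986) and Cyp2d38-ps (0.977) for Acot12, and Coq8b (0.965), Slc17a9 (0.930) and Gpat3 (0.916) for Acot13.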

How the data were processed

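The deposited tables give raw read counts per gene and library, and the authors' tables repeat libraries: 11 tables were joined by gene, and 0 of 1341082 repeated values differed. A gene absent from a table was set to 0. Gene lengths, of another unit, were used as deposited for CPM per kb. Per the submitters' processing notes, STAR 2.6.1, HTSeq 0.6.1 and DESeq2 2 were used on GRCm38/mm10, with no roles given. Per the labels' protocols, libraries were not strand specific. Gene coordinates matched GENCODE M21 for 97.4% of 29181 genes.

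CPM was computed with TMM factors over all 48 libraries. Each comparison was fitted to its own groups with edgeR 4.0.16 (limma 3.58.1, R 4.3.3; TMM, filterByExpr, quasi-likelihood F test), with Benjamini-Hochberg adjustment over all genes tested and calls at an adjusted p under 0.05. There were 11 pairwise comparisons and 5 interactions, and 4 comparisons of the sexes were added after the levels had been seen. Intervals are normal 95% intervals of the fitted log2 change, from its SE. Alternatives were DESeq2 1.42.0 size factors, its Wald test, no filter, all groups in 1 fit, a replicate block and leaving out each library. The pairwise fit was also run on simulated counts for the labelled knockout in HF males and HF females. Interactions and log2 changes under 1 were not simulated, and the recovery is not given here.

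All 9 genes were named, with the 3 genes of highest correlation for each (log2 of CPM plus 0.5) and up to 3 called genes with the largest change from each list. Only some of these list genes are described. The members, the gene lists and the markers were chosen with earlier results of these data known.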

Additional observations from a re-analysis of the deposited data

Results flagged for a closer look

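In 4 of 90 groups of values (9 genes in 10 groups), 1 library stood apart from the rest by Dixon's criterion, which chance meets in about 1 in 20 groups. Acot1 was at 34.3 CPM in HF labelled knockout male replicate 6 and at 13.4 to 20.7 in the other 5. Acot13 was at 43.9 CPM in HFCF labelled knockout male replicate 6 and at 35.3 to 38.5 in the other 5. Vnn1 was at 206 CPM in LF labelled knockout female replicate 3 and at 81.4 to 95.0 in the other 3, and at 319 CPM in HF control female replicate 2 against 177 to 201. Between groups, the change of Acot2 with the labelled knockout in males differed by 1.44 on the log2 scale between the HFCF and HF diets (SE 0.234, edgeR interaction test, adjusted p = 0.00217).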

How the results depend on the processing

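No called value changed sign under any alternative run (0 of the 46 called among 180 log2 values), and 125 values near 0 that were not called did. With DESeq2 size factors 0 of 90 mean levels moved by more than 1 SD. Outside the replicates left out, 22 log2 values lost and 10 gained a call; leaving out a library lost 79 and gained 18. The cause was not tested. The number of the 9 genes called for the labelled knockout in HFCF males went from 1 to 2 with the DESeq2 Wald test and to 2 with all male groups in 1 fit, Acot13 being the addition. In HFCF females the 1 call (Vnn1) was lost (0) with all female groups in 1 fit. For HF against LF in labelled knockout females the 1 call (Acot1) was also lost (0) in such a fit.

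Same-numbered libraries come from no shared animal, and in no comparison did every pair correlate above 0.1, so the replicate block is given only here. With the replicate block as a term, calls among the 9 went from 1 to 0 for the labelled knockout in HFCF females and from 1 to 0 for HF against LF in labelled knockout females. On HFCF against HF they went from 5 to 0 in control females and from 3 to 1 in labelled knockout females. Between the sexes on HFCF they went from 5 to 3 in controls and from 5 to 2 in labelled knockouts.

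Leaving out each library in turn, the number called ranged from 3 to 5 for the labelled knockout in HF males (4 with all libraries), 1 to 2 in HFCF males (1) and 0 to 1 in HFCF females (1), and stayed at 0 in LF and HF females. For HFCF against HF it ranged from 4 to 5 in control males (4), 3 to 5 in labelled knockout males (4), 2 to 6 in control females (5) and 1 to 5 in labelled knockout females (3). For HF against LF it was 0 in control females and 0 to 1 in labelled knockout females (1). For the male interaction it was 1 to 2 (1), and 0 for the other 4 interactions. Between the sexes it was 4 to 7 (5) and 7 to 8 (7) on HF and 2 to 6 (5) and 2 to 6 (5) on HFCF, controls first.

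Counts over all genes moved by over 1.5 times as follows. With the DESeq2 Wald test, labelled knockout calls went from 324 to 719 in HFCF males and from 0 to 8, 0 to 61 and 8 to 81 in LF, HF and HFCF females. HF against LF went from 99 to 648 in controls and 22 to 501 in labelled knockouts, and the sexes on HFCF from 396 to 794 and 811 to 1585. The male interaction went from 235 to 613, those with sex from 0 to 47 (HF) and 0 to 12 (HFCF), and that of controls from 1 to 137. With no filter, counts were 1 (HF females), 26 (HFCF females), 185 and 124 (HF against LF) and 1 (HF sex interaction). With all groups in 1 fit they were 2, 313, 114 and 2 (HF females, both HF against LF, HF sex interaction), 0 (interaction of controls) and 1910 (sexes, HFCF labelled knockouts). With the replicate block they were 165 (HFCF males), 0 (HFCF females), 9 (HF against LF, labelled knockouts), 127 (male interaction) and 0 (controls' interaction). HFCF against HF in females went from 4526 to 0 in controls and from 2118 to 1180 in labelled knockouts, and the sexes from 2624 to 1677, 2045 to 1053, 396 to 118 and 811 to 145. Leaving out each library in turn, labelled knockout calls ranged from 185 to 1052 in HFCF males (the latter without control replicate 1) and from 0 to 19 in HFCF females. HFCF against HF ranged from 2217 to 5429 (without HFCF replicate 1) in control males, 2454 to 6530 in control females and 866 to 4402 (without HFCF replicate 1) in labelled knockout females. HF against LF ranged from 10 to 112 and 0 to 124. The male interaction ranged from 119 to 412, that of HF with sex from 0 to 287, that of HFCF with sex from 0 to 1 and that of controls from 0 to 1699, the highs on HF with sex and in controls both without HF control female replicate 1. The sexes ranged from 1340 to 5053 (without the same library), 1278 to 2002, 183 to 638 and 262 to 1146.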
